A study of Mus musculus with 9 samples.

Results

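The genes described here are App, Aplp1, Aplp2, Psen2, Bace1, Apoe, Clu and Itm2b. They encode the amyloid precursor family, enzymes that cut it, apolipoproteins and an inhibitor of that cutting. They were chosen by symbol from a list of genes of amyloid processing and lipid transport studied in neurodegeneration after brain injury, and are 8 of the 55421 genes in the count table. All 8 passed the filter on low counts, which left 20032 genes. The data were bulk RNA sequencing counts of sorted mouse hippocampal cells in 9 libraries. Of these, 3 were labelled wild-type sham, from mice operated on without an impact, and 3 were labelled wild-type mTBI, from mice given a single mild controlled cortical impact (mild traumatic brain injury). The other 3 were labelled knockout mTBI, from mice with a conditional knockout of Tmsb4x and the same impact. Mice of all groups expressed the red fluorescent protein tdTomato in neurons, and live tdTomato-positive cells were collected after trypsin digestion. The labels give no age, sex, time after injury, Cre driver or deleted part of Tmsb4x, and no group of uninjured knockout mice was included. They give 3 mice per group.

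The amyloid precursor protein App is a membrane protein with the paralogs Aplp1 and Aplp2. It is cut by alpha-secretases on a path that yields no amyloid-beta peptide, or by the beta-secretase Bace1 and then by gamma-secretase, whose catalytic subunit is a presenilin such as Psen2, which releases amyloid-beta. Itm2b (BRI2) binds App and restrains its cutting. Apoe is the main lipid carrier of brain lipoproteins and Clu (clusterin) is a secreted chaperone that also travels on lipoproteins. Both are made largely by astrocytes and bind amyloid-beta. App is studied in brain injury because it accumulates in injured axons.

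Totals lay between 36452443 and 39590872 counts per library. Tmsb4x, the gene deleted in the knockout, stood at 1.83, 2.79 and 2.77 CPM (counts scaled to library size with TMM) in knockout mTBI and at 900.0, 553 and 297 CPM in wild-type mTBI. In the libraries labelled sham it stood at 2.73, 1.68 and 2.23 CPM, which goes against a wild-type label, so directions against sham below are those of the libraries labelled sham. Those 3 libraries were also closer to one another than the rest, with a biological coefficient of variation of 3.26%, where wild-type mTBI had 19.6% and knockout mTBI 18.7%. Each p against sham takes them as 3 mice. Xist was at 835 CPM in wild-type mTBI replicate 3 and at most 0.892 CPM in the other 8 libraries. Although the sort was for neuronal fluorescence, markers of other cells were abundant. The 10 astrocyte markers summed to 5529 to 6698 CPM and the 10 oligodendrocyte markers to 5455 to 10014 CPM, against 10770 to 12206 CPM for 10 neuronal markers. The 10 choroid plexus markers summed to 217 to 218 CPM in sham, 4411 to 6205 CPM in wild-type mTBI, and 233, 5010 and 4098 CPM in knockout mTBI replicates 1, 2 and 3.

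RefSeq promoter sequences were found for 6 of the 8 genes (build GRCm38.p6), and 5 of these are shown for the 3 members of the App family, for Itm2b, the gene of the 8 with all injured libraries above sham, and for Apoe, the most abundant of them per kb of exon. The table holds 3 start sites for Apoe, and the one farthest upstream is shown. Each is the stretch up to 250 bases before the start of transcription, written 5′ to 3′ on the strand of the gene, with bases in annotated exons left out (59 for App, 0 for the others). Capitals mark matches on either strand to the GC box GGGCGG, the CCAAT box, the TATA box with letters TATAAA, the E-box with letters CACGTG or the AP-1 site with letters TGACTCA.
App, chr16:85173767-85173957, minus strand: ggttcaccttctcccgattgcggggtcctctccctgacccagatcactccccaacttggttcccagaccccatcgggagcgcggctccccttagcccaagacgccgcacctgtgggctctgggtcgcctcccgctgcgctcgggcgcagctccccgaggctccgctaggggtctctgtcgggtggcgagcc
Aplp1, chr7:30445583-30445832, minus strand: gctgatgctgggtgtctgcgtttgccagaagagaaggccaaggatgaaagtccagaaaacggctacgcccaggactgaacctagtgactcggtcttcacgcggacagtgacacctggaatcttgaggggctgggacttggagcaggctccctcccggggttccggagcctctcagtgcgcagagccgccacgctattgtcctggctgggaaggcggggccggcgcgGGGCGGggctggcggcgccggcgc
Aplp2, chr9:31211849-31212098, minus strand: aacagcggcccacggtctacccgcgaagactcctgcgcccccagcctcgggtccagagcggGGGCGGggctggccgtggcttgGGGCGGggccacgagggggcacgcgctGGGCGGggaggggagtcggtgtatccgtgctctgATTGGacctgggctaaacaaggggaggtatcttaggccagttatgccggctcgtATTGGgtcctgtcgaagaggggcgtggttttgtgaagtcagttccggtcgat
Itm2b, chr14:73385290-73385539, minus strand: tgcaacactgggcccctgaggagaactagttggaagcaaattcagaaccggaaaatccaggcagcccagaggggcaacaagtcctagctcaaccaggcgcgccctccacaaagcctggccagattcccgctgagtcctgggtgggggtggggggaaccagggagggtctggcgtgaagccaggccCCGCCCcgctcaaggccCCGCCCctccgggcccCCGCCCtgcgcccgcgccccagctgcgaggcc
Apoe, chr7:19699189-19699438, minus strand: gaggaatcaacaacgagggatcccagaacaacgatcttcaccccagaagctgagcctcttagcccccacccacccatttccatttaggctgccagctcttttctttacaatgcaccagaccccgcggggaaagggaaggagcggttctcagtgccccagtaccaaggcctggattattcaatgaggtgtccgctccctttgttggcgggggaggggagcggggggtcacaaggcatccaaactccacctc

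Aplp2 and Itm2b held 3 GC boxes each in these stretches and Aplp1 held 1, while none was found in those of App and Apoe. A GC box was present in 32.7% of the 32851 promoters of 250 bases in the table. The Aplp2 stretch also held 2 CCAAT boxes, which 33.8% of promoters held. The TATA box, held by 12.4% of promoters, the E-box, by 6.0%, and the AP-1 site, by 4.5%, were not among the letters of these 5 stretches. The stretch before the second start site of Apoe, not shown, held 2 matches to the TATA box, which overlap on opposite strands. GC content was 69.6% for App, 66.0% for Aplp1, 66.4% for Aplp2, 68.8% for Itm2b and 57.2% for Apoe, against a median of 52.4% over all promoters. These are descriptions of letters, since no measurement of binding or chromatin was made.

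Apoe, Aplp1, Clu and Itm2b ranked between 20 and 88 among genes ordered by level per exon length, whereas Psen2 and Bace1 were far lower. Per kb of exon, Apoe (ENSMUSG00000002985, GRCm38 chromosome 7, 19696109 to 19699188, minus strand) was the highest of the 8, at a mean of 650.0 CPM per kb over the 9 libraries (range 601 to 756), rank 20 of 20014 genes. Aplp1 (ENSMUSG00000006651, chromosome 7, 30434982 to 30445535, minus strand) followed at 312 (282 to 375, rank 51), and Clu (ENSMUSG00000022037, chromosome 14, 65968483 to 65981547, plus strand) at 253 (226 to 306, rank 66). Itm2b (ENSMUSG00000022108, chromosome 14, 73362226 to 73385289, minus strand) was at 226 CPM per kb (214 to 272, rank 88). The ranges of Aplp1 and Clu overlapped, as did those of Clu and Itm2b, although within a library Aplp1 exceeded Clu in 8 of 9 and Clu exceeded Itm2b in 9 of 9. App (ENSMUSG00000022892, chromosome 16, 84949685 to 85173766, minus strand) stood at 136 CPM per kb (131 to 142) and Aplp2 (ENSMUSG00000031996, chromosome 9, 31149557 to 31211815, minus strand) at 96.2, in ranges that did not overlap. Bace1 (ENSMUSG00000032086, chromosome 9, 45838580 to 45864399, plus strand) was at 13.5 CPM per kb (10.4 to 15.5). Psen2 (ENSMUSG00000010609, chromosome 1, 180227004 to 180263438, minus strand) was the lowest, at 4.23 CPM per kb (3.87 to 4.73) and rank 8560. Apoe was 154-fold above Psen2 per kb. Exon lengths join all annotated isoforms of a gene, so App, with 12996 bases of exon, is placed lower per kb than it would be on a single transcript, and in CPM without length App was the highest of the 8.

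Within the App family, the share of the summed level per kb was 57.2% ± 1.83 (SD, n = 9) for Aplp1, 25.0% ± 1.23 for App and 17.7% ± 0.822 for Aplp2. This order depends on the joined exon lengths. In CPM without length App held 54.0% ± 1.52, Aplp1 28.7% ± 1.63 and Aplp2 17.3% ± 0.603. Per kb, the Aplp1 share was 56.7%, 57.2% and 57.7% in the libraries labelled sham, 61.6%, 57.0% and 56.1% in wild-type mTBI, and 57.2%, 55.0% and 56.6% in knockout mTBI. The sham values lay inside the range of wild-type mTBI, whose replicate 1 was the highest of the 9.

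The comparison of wild-type mTBI with the libraries labelled sham asked whether these genes differed after injury. Tmsb4x differed between these groups too (log2 8.04), so injury and Tmsb4x level cannot be told apart here. Changes described as after injury are differences between these labelled groups. None of the 8 was called in edgeR at an adjusted p under 0.05, where 0.509% of the 20032 genes tested were called. None had an unadjusted p under 0.05 either, which 2653 genes had, and none was called by DESeq2 or limma voom. The adjusted p of the 8 genes lay between 0.469 and 0.978. Of the 8, 7 were higher in wild-type mTBI, with a median of log2 0.101, against 53.0% of all genes and a median of 0.018. The groups did not overlap for 1 of the 8, Itm2b, where 23.9% of all genes tested did not.

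**Figure D1:**
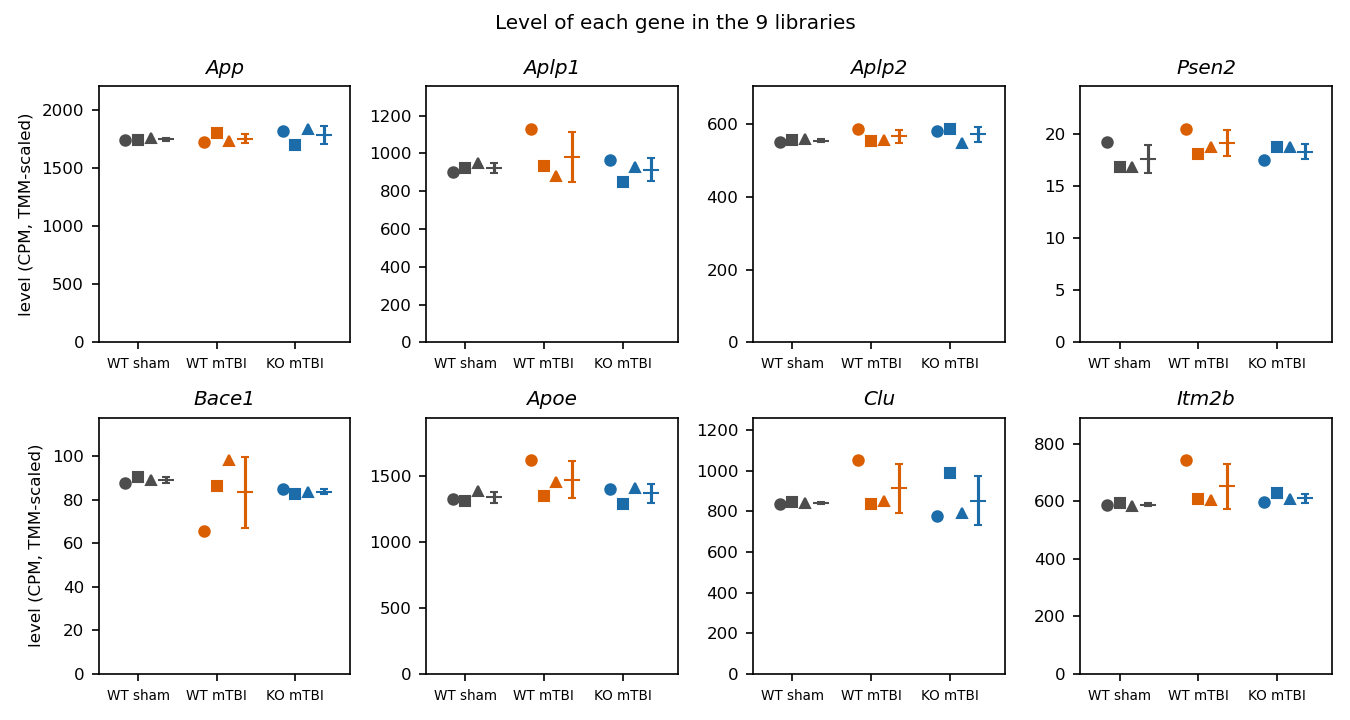
Level of each gene in CPM (vertical axes, from 0, each with its own scale) in the 3 libraries of each group, with replicates 1, 2 and 3 as circle, square and triangle and the mean ± SD of the group as a bar to the right. Wild-type mTBI replicate 1 (orange circle) was the highest library for 6 of the 8 genes and the lowest for Bace1, and App lay between 1703 and 1842 CPM in all 9.

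App, the precursor itself, was level across the groups. It stood at 1744, 1743 and 1765 CPM in the libraries labelled sham, 1731, 1805 and 1736 CPM in wild-type mTBI, and 1824, 1703 and 1842 CPM in knockout mTBI. The groups overlapped, with the lowest and the highest value both in knockout mTBI. The change after injury was log2 0.01 (SE 0.06, 95% interval -0.13 to 0.15, adjusted p = 0.978), so that the interval reached from 0.911-fold to 1.11-fold. Aplp2, the broadly expressed paralog, was at 551, 556 and 559 CPM in sham and at 588, 555 and 558 CPM in wild-type mTBI (log2 0.03, interval -0.11 to 0.17, adjusted p = 0.864). Aplp1, the paralog restricted largely to the nervous system, was at 901, 923 and 952 CPM in sham and at 1131, 932 and 883 CPM in wild-type mTBI. Its sham values lay within the range of wild-type mTBI (log2 0.09, SE 0.09, interval -0.12 to 0.29, adjusted p = 0.715).

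The enzymes that cut App were less abundant than their substrate. Bace1, the beta-secretase, was at 87.8, 90.5 and 89.3 CPM in the libraries labelled sham and at 65.8, 86.3 and 98.2 CPM in wild-type mTBI. Its wild-type mTBI values lay on both sides of sham, and the coefficient of variation was 19.6% in wild-type mTBI against 1.52% in sham. The change was log2 -0.10 (SE 0.12, interval -0.35 to 0.16, adjusted p = 0.738). Psen2, a catalytic subunit of gamma-secretase, was at 19.2, 16.8 and 16.8 CPM in sham and at 20.5, 18.1 and 18.7 CPM in wild-type mTBI, on 611 to 799 counts per library. Sham replicate 1 exceeded 2 of the wild-type mTBI libraries (log2 0.12, SE 0.10, interval -0.09 to 0.33, adjusted p = 0.613).

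Among the secreted carriers and the inhibitor of App cutting, the sizes were similar and did not pass. Apoe stood at 1321, 1304 and 1383 CPM in the libraries labelled sham and at 1616, 1344 and 1450 CPM in wild-type mTBI. The groups overlapped, since wild-type mTBI replicate 2 lay below sham replicate 3 (log2 0.14, SE 0.08, interval -0.04 to 0.31, adjusted p = 0.479). Clu was at 835, 847 and 843 CPM in sham and at 1052, 838 and 853 CPM in wild-type mTBI, with only replicate 1 well above sham (log2 0.12, SE 0.11, interval -0.12 to 0.36, adjusted p = 0.660). Itm2b was at 588, 593 and 584 CPM in sham, 742, 608 and 603 CPM in wild-type mTBI and 597, 627 and 606 CPM in knockout mTBI. All 6 injured libraries lay above all 3 sham libraries, as did those of 3.64% of all genes tested. The change of Itm2b after injury was log2 0.15 (SE 0.08, interval -0.04 to 0.33, adjusted p = 0.469). The exact two-sided permutation test gave p = 0.1, the smallest that 3 against 3 can give and the value that groups without overlap always give.

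**Figure D2:**
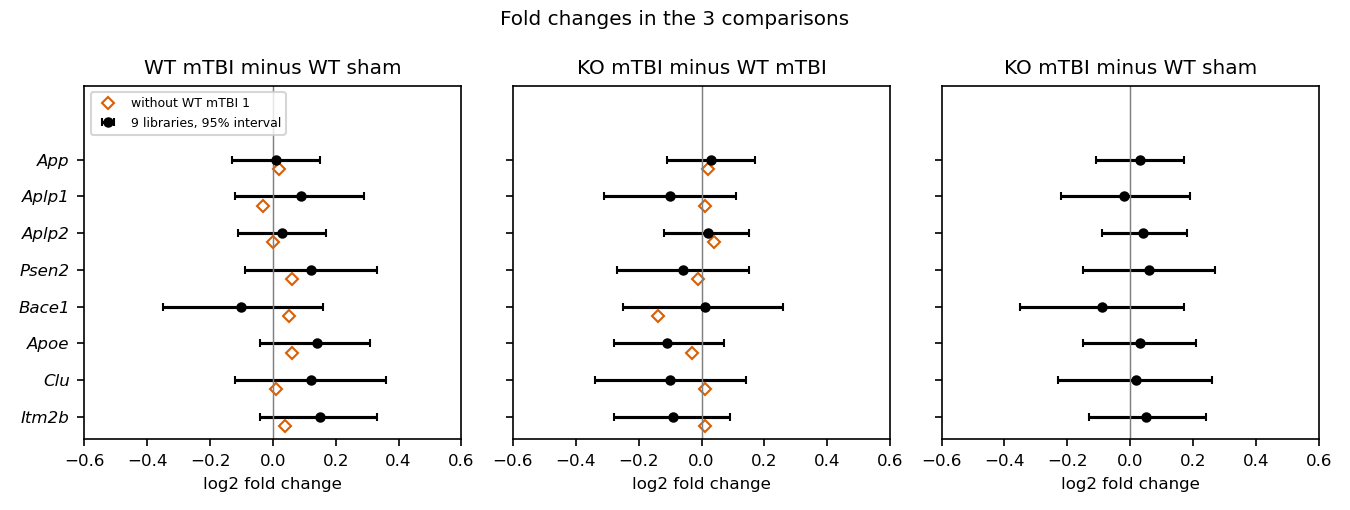
Log2 fold change of each gene (horizontal axes) with its 95% interval (black) in the 3 comparisons, and the value without wild-type mTBI replicate 1 (open diamonds) in those that use that group. Every black interval includes 0, and all bounds lie between -0.35 and 0.36.

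Wild-type mTBI replicate 1 stood farthest from the rest. It was the highest of the 9 libraries for Aplp1, Aplp2, Psen2, Apoe, Clu and Itm2b and the lowest for Bace1. In log2 CPM relative to the mean of the 9 libraries it was at 0.22 for Apoe, 0.27 for Itm2b, 0.27 for Aplp1 and 0.28 for Clu, the 4 genes with the shortest exon lengths (2.14, 2.73, 3.02 and 3.44 kb). It was at 0.16 for Psen2 (4.33 kb), 0.06 for Aplp2 (5.88 kb), -0.37 for Bace1 (6.35 kb) and -0.03 for App (13.0 kb). Across all genes, the deviation of this library had a rank correlation of -0.29 with exon length, against 0.0081 to 0.11 in the other 8 libraries, as a description across genes. The part of length in the values of the 8 genes was not tested. Without this library, the injury change was log2 0.06 for Apoe (adjusted p = 0.728), 0.04 for Itm2b (0.770), 0.01 for Clu (0.989), 0.06 for Psen2 (0.843), 0.02 for App (0.935) and 0.00302 for Aplp2 (0.989). The sign turned for Aplp1, to -0.03 (0.903), and for Bace1, to 0.05 (0.814).

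**Figure D3:**
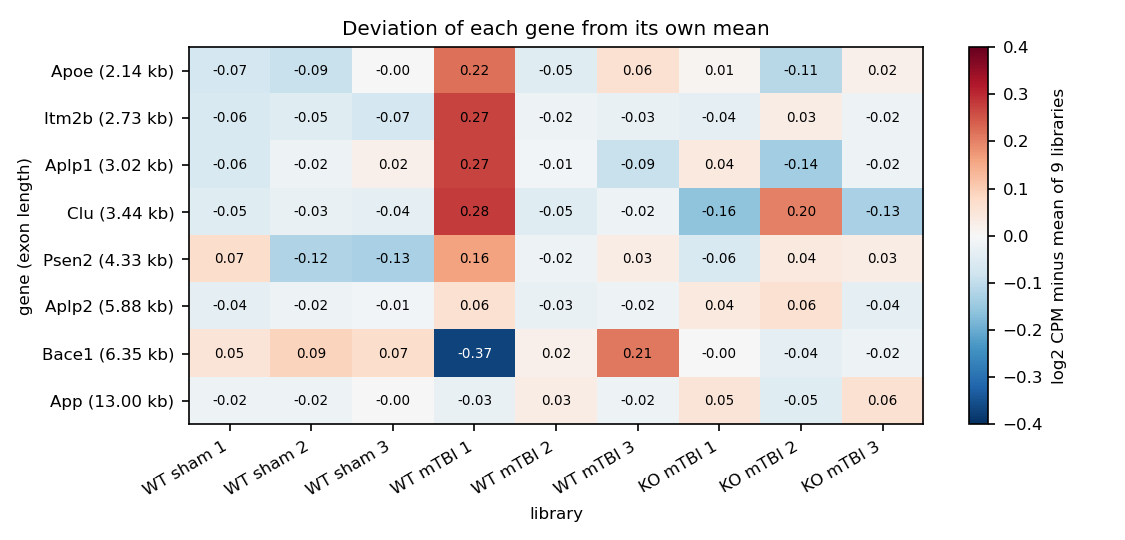
Log2 CPM of each gene in each library minus the mean of the gene over the 9 libraries (colour and printed value), with genes ordered by exon length from the shortest at the top. The column of wild-type mTBI replicate 1 runs from 0.22 to 0.28 in the 4 shortest genes to -0.37 in Bace1, and the 3 sham columns lie between -0.13 and 0.09.

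Markers of astrocytes went both ways in that library. Of the 10, 4 lay above all 3 sham values (Glul, S100b, Aldoc and Aldh1l1) and 6 below (among them Slc1a2, at 2009 CPM against 2886 to 2975 CPM in sham). Glul, the glutamine synthetase of astrocytes, was at 1540 CPM against 1153 to 1164 CPM in sham. The part of astrocyte RNA in the levels of Apoe and Clu was not tested. The 10 markers summed to 5714 CPM in wild-type mTBI replicate 1, against 6334 to 6439 CPM in the libraries labelled sham. Slc1a2, the most abundant of the 10, made up 2009 CPM of that sum, against 2886 to 2975 CPM in sham. Over all genes the deviation of this library had a rank correlation of -0.29 with exon length, and the part of length in the marker sum was not tested. The choroid plexus markers were lower in replicate 1 (4411 CPM) than in wild-type mTBI replicates 2 and 3 (6205 and 6094 CPM). In knockout mTBI replicate 1, where these markers summed to 233 CPM, Apoe was at 1401 CPM, between 1284 and 1409 CPM in replicates 2 and 3 with choroid sums of 5010 and 4098 CPM. Clu was at 775 CPM in knockout replicate 1 against 991 and 790 CPM. The microglial markers summed to 386 CPM in wild-type mTBI replicate 1, against 358 to 366 CPM in sham, and their part in the level of Apoe was not tested. In bulk samples, fewer cells of a type and less RNA per cell cannot be told apart.

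The comparison of knockout mTBI with wild-type mTBI asked whether deletion of Tmsb4x altered these genes in injured mice. None of the 8 was called in edgeR, where 0.0150% of the genes tested, 3 genes, were called. None had an unadjusted p under 0.05, which 1323 genes had, and none was called by DESeq2 or limma voom. Adjusted p lay between 0.749 and 0.992. The groups overlapped for all 8, where 9.72% of all genes did not overlap. Of the 8, 5 were lower and 3 higher in the knockout, with a median of log2 -0.077 against 0.001 for all genes. This comparison shares the wild-type mTBI libraries with that after injury.

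Apoe, the gene of smallest p, was at 1401, 1284 and 1409 CPM in knockout mTBI and differed from wild-type mTBI by log2 -0.11 (SE 0.08, interval -0.28 to 0.07, adjusted p = 0.749). Aplp1 was at 967, 851 and 927 CPM in knockout mTBI (log2 -0.10, interval -0.31 to 0.11) and Clu at 775, 991 and 790 CPM (log2 -0.10, interval -0.34 to 0.14). Clu in knockout replicate 2 was second only to wild-type mTBI replicate 1 among the 9 libraries, so both injured groups held a single high library for Clu. Astrocyte markers, at 6698 CPM, and microglial markers, at 506 CPM, were at their highest of the 9 libraries in that knockout replicate 2, and their part in its Clu level was not tested. Itm2b changed by log2 -0.09 (interval -0.28 to 0.09) and Psen2, at 17.5, 18.7 and 18.7 CPM in knockout mTBI, by -0.06 (-0.27 to 0.15). App differed by log2 0.03 (interval -0.11 to 0.17) and Aplp2, at 582, 587 and 549 CPM in knockout mTBI, by 0.02 (-0.12 to 0.15). Bace1, at 84.8, 82.8 and 83.7 CPM in knockout mTBI, differed by log2 0.01 (-0.25 to 0.26). Its 3 knockout values had a coefficient of variation of 1.15% and lay between the low and the high value of wild-type mTBI. Without wild-type mTBI replicate 1, Clu was at log2 0.01, Itm2b at 0.01, Aplp1 at 0.01 and Bace1 at -0.14, each with the sign turned.

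Knockout mTBI was also compared with the libraries labelled sham, which differ in genotype label as well as injury. Tmsb4x itself was at log2 0.15 between them (edgeR adjusted p = 0.999). None of the 8 was called in edgeR, where 0.0699% of the genes tested, 14 genes, were called, and adjusted p was 0.999 for all 8. None had an unadjusted p under 0.05, which 1443 genes had, and none was called by DESeq2 or limma voom. The changes lay between log2 -0.09 (Bace1) and 0.06 (Psen2). The groups did not overlap for 2 of the 8, where 17.2% of all genes did not. Itm2b was higher (log2 0.05, SE 0.08, interval -0.13 to 0.24) and Bace1 lower in knockout mTBI (log2 -0.09, SE 0.12, interval -0.35 to 0.17). These SEs come from the fit of all 9 libraries. The coefficient of variation of Bace1 was 1.52% in sham and 1.15% in knockout mTBI, but 19.6% in wild-type mTBI, which is not compared here. The exact permutation test gave p = 0.1 for both, the value that 3 against 3 always gives where groups do not overlap. App (log2 0.03), Apoe (0.03), Clu (0.02), Aplp2 (0.04) and Aplp1 (-0.02) overlapped with sham.

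The wider pathway was read from 63 genes in 8 lists, of which 61 were tested. In wild-type mTBI against the libraries labelled sham, edgeR called 1 higher and none lower, where 0.509% of all genes were called. An unadjusted p under 0.05 was found for 8 of the 61 (13.1%), against 13.2% of all genes. DESeq2 called 3 of the 61 (Ace, Pltp and Sorl1), where it called 541 of the 20032 genes tested. limma voom called 4 (these and Aph1b), where it called 722 of the 20032. The gene called by edgeR was Ace, the angiotensin-converting enzyme, which can also degrade amyloid-beta (ENSMUSG00000020681, chromosome 11, 105967945 to 105989964, plus strand). It stood at 13.1, 12.7 and 13.5 CPM in sham and at 42.4, 77.4 and 70.8 CPM in wild-type mTBI, a 4.84-fold rise (log2 2.28, SE 0.43, adjusted p = 0.0488). In knockout mTBI it was at 19.2, 87.7 and 62.3 CPM, higher than sham in 3 of 3 but not called by edgeR (log2 2.10, SE 0.43, adjusted p = 0.148). This difference was called in 5 of 19 alternatives, with log2 1.63 to 2.51 and adjusted p from 3.42e-09 to 0.71, and stood at 2.51 (0.000286) without knockout mTBI replicate 1. The low value in knockout replicate 1 was in the library where the choroid plexus markers summed to 233 CPM, against 4098 to 6205 CPM in the other 5 injured libraries. Of those 10 markers, 8 were called higher after injury and all 10 had positive changes. None was at 0 in any library, and the part of choroid plexus cells in the rise of Ace was not tested. Ace was called in 9 of 19 alternative analyses, at log2 2.10 to 2.5 over all 19. It lost its call without any 1 of the 3 sham libraries (adjusted p = 0.249 to 0.276), without wild-type mTBI replicate 2 (0.0859) or 3 (0.115) and without knockout mTBI replicate 3 (0.0715), and stood at 0.0511 with RLE scaling, 0.0514 without composition scaling, 0.0585 with a stricter filter and 0.0505 with counts divided by 2. The other degrading enzymes did not pass. The neprilysin gene Mme was at log2 0.27 (adjusted p = 0.409).

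**Figure D4:**
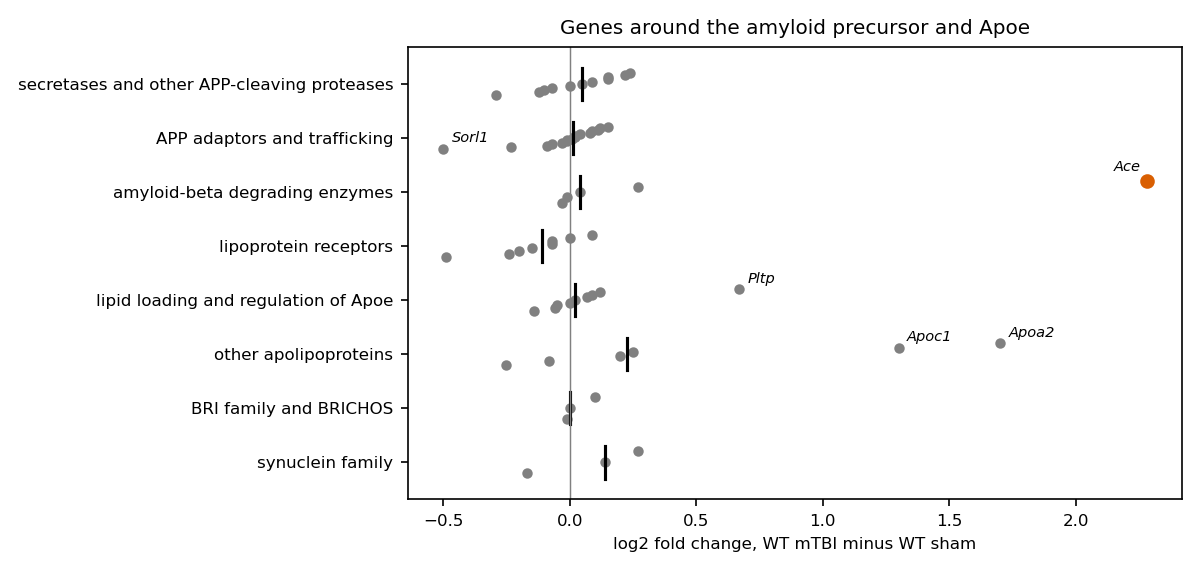
Log2 fold change between wild-type mTBI and the libraries labelled sham (horizontal axis) for the tested genes of 8 lists (rows), 1 point per gene, with the median of a list as a black line. Ace, in orange at 2.28, is the only point called, and the medians lie between -0.11 and 0.23.

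None of the secretase genes was called by edgeR or DESeq2 after injury, and limma voom called Aph1b (adjusted p = 0.0321). The list held 11 tested genes, 6 positive and 5 negative, with a median of log2 0.05 against 0.02 for all genes. The gamma-secretase partners of the presenilins had the smallest p, with Aph1b at log2 0.24 (adjusted p = 0.392), Aph1a at 0.15 (0.445) and Psenen at 0.22 (0.482). Psenen was at 27.3 CPM in wild-type mTBI replicate 1 against 19.0 and 21.2 CPM in replicates 2 and 3, and its change was 0.06 without replicate 1. Aph1b was at 28.5, 29.7 and 27.2 CPM in sham, 27.7, 39.5 and 33.9 CPM in wild-type mTBI and 34.5, 33.7 and 33.7 CPM in knockout mTBI. It was called in 2 of 19 alternatives.

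Among 16 App adaptors and trafficking genes, 9 were positive and 7 negative after injury with a median of log2 0.01 against 0.02 for all genes, and edgeR called none. Sorl1, the sorting receptor that returns App from endosomes, came closest (ENSMUSG00000049313, chromosome 9, 41964720 to 42124297, minus strand). It stood at 541, 543 and 523 CPM in the libraries labelled sham, 320, 437 and 379 CPM in wild-type mTBI and 426, 488 and 427 CPM in knockout mTBI. All 6 injured libraries lay below all 3 sham libraries, as did those of 3.99% of all genes tested. The change after injury was log2 -0.50 (SE 0.10, interval -0.73 to -0.27, adjusted p = 0.0670). It was called in 5 of 19 alternatives, with adjusted p from 0.000455 to 0.325, and was -0.39 without wild-type mTBI replicate 1. Sorl1 holds 11321 bases of exon and was at its lowest in that replicate, and the part of exon length in its level was not tested. In the knockout comparison it was at log2 0.24 (adjusted p = 0.732), and between knockout mTBI and sham at -0.26 (0.594). Sort1, the sorting receptor sortilin, was at log2 -0.23 after injury (adjusted p = 0.318).

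Receptors and lipid loading of Apoe were read from 2 lists. edgeR, DESeq2 and limma voom called none of the 8 lipoprotein receptor genes after injury (2 positive, 6 negative, median log2 -0.11 against 0.02 for all genes). Lrp4 was at log2 -0.24 (adjusted p = 0.290). Lrp1, the large endocytic receptor of Apoe, was at 690.0, 707 and 686 CPM in sham and at 406, 704 and 698 CPM in wild-type mTBI, so that replicate 1 alone was low. Of 9 genes of lipid loading and its regulation, 6 were positive (median log2 0.02, equal to that of all genes) and edgeR called none. Pltp, the phospholipid transfer protein that remodels lipoproteins, was at 36.6, 38.6 and 38.2 CPM in sham and at 50.2, 62.3 and 67.5 CPM in wild-type mTBI. These groups did not overlap, as for 23.9% of all genes tested. The change of Pltp was log2 0.67 (SE 0.15, interval 0.33 to 1.00, adjusted p = 0.0852), and it was called in 7 of 19 alternatives. In knockout mTBI it was at 45.9, 35.0 and 55.3 CPM (log2 -0.40 from wild-type mTBI, adjusted p = 0.732). The exporters Abca1 and Abcg1 and the liver X receptor genes Nr1h2 and Nr1h3 that induce Apoe were not called.

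**Figure D5:**
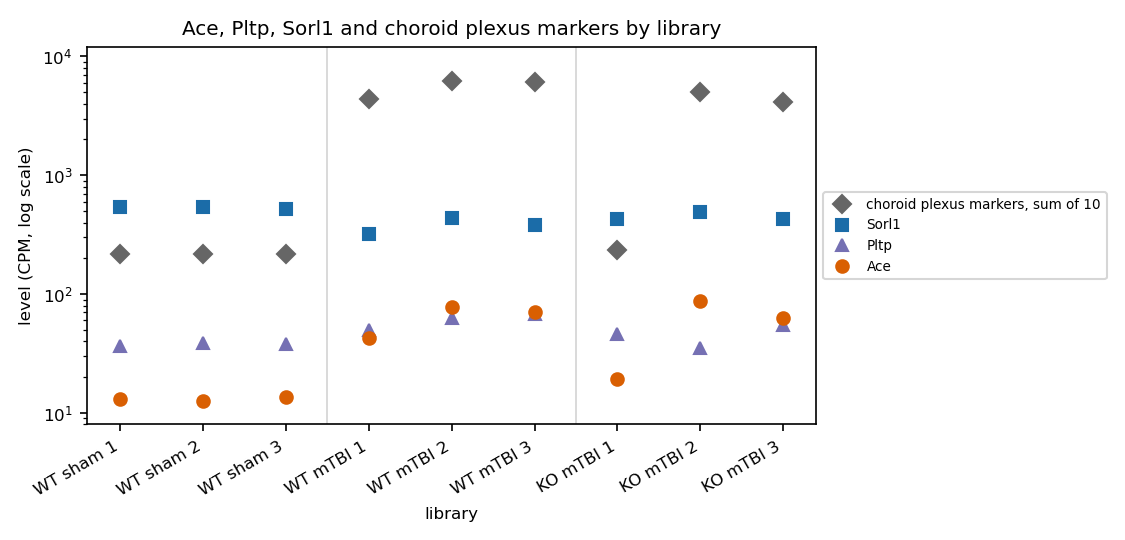
Level in CPM on a log scale (vertical axis) of Ace, Pltp, Sorl1 and the sum of the 10 choroid plexus markers in each of the 9 libraries (horizontal axis). Ace stands at 12.7 to 13.5 CPM in the libraries labelled sham and at 19.2 CPM in knockout mTBI replicate 1, the injured library with a choroid sum of 233 CPM.

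Of the other apolipoprotein genes, 6 of 8 were tested and none was called by edgeR, DESeq2 or limma voom after injury. Apoc1, which lies in the same gene cluster as Apoe, was scarce, at 0.363 to 0.606 CPM in the libraries labelled sham and at 0.867 to 1.59 CPM in wild-type mTBI. Its change was log2 1.30 (SE 0.37, adjusted p = 0.174). Apod, a lipocalin found on lipoproteins, was at 144, 105 and 142 CPM in wild-type mTBI and at 171, 209 and 146 CPM in knockout mTBI. The groups did not overlap, as for 9.72% of all genes tested, and the change was log2 0.43 (SE 0.14, interval 0.13 to 0.73, adjusted p = 0.732). In the BRI family, Itm2c, the paralog of Itm2b, was at log2 -0.01 after injury (adjusted p = 0.956), and Furin, which processes BRI proteins, at 0.10 (0.655). For the synuclein family, Sncb (beta-synuclein, a presynaptic protein) was at 305, 311 and 306 CPM in sham, 415, 349 and 342 CPM in wild-type mTBI and 387, 278 and 323 CPM in knockout mTBI. Its groups did not overlap after injury (log2 0.27, SE 0.11, adjusted p = 0.352), as for 23.9% of all genes tested. In the knockout comparison Sncb was at log2 -0.16 (0.743). Without wild-type mTBI replicate 1 these changes were 0.17 (0.565) and -0.07 (0.943).

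With the knockout, none of the 61 pathway genes was called by edgeR, DESeq2 or limma voom, where edgeR called 0.0150% of all genes. An unadjusted p under 0.05 was found for 7 (11.5%), against 6.6% of all genes. Besides Apod, these were Sorl1, Apbb2, an App adaptor (log2 0.16), Ide, the insulin-degrading enzyme that also cleaves amyloid-beta (-0.17), Lcat, which esterifies cholesterol on lipoproteins (-0.34), Pltp and the mitochondrial Apoo (-0.25), at adjusted p = 0.732 each. Between knockout mTBI and the libraries labelled sham edgeR called none either, where it called 0.0699% of all genes. An unadjusted p under 0.05 was found for 8 (13.1%), against 7.2% of all genes. In this comparison DESeq2 called 1, Ace, where it called 226 of the 20032 genes tested. limma voom called 3, namely Ace, Lrp4 (adjusted p = 0.0259) and Sorl1 (0.0379), where it called 279 of the 20032. Ide was at 47.7, 46.9 and 45.1 CPM in knockout mTBI and at 50.7 to 55.3 CPM in the libraries of the other groups. It did not overlap with wild-type mTBI, as for 9.72% of all genes tested, or with sham, as for 17.2%. The share of genes with both was not counted. The change was log2 -0.17 from wild-type mTBI and -0.18 from sham (edgeR adjusted p = 0.564).

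The genes whose pattern over the 9 libraries was most like that of each of the 8 were taken as the 3 of highest Pearson correlation in log2 CPM among 13274 genes. For Itm2b these were Rps27 (0.994), Rpl10a (0.993), both of cytosolic ribosomal proteins, and Taf10 (0.988). For Apoe they were Mpst (0.977), Shisa4 (0.964) and Ntan1 (0.963), for Clu Ormdl3 (0.979), Gcdh (0.975) and Fxr1 (0.971), and for Aplp1 B3gat3 (0.986), Psmc2 (0.985) and Sars (0.985). Bace1 was most like Sox6 (0.983), Kif26a (0.978) and Rubcn (0.969). For App the genes were Man2a1 (0.961), Trub2 (0.951) and Cand1 (0.941), for Aplp2 Fuca2 (0.947), Zfp946 (0.942) and Rcan2 (0.942), and for Psen2 Pinx1 (0.941), Upf3b (0.938) and Macrod1 (0.936). The lists of different members shared no gene. These values describe 9 libraries picked over many genes, share the scaling of each library, and were lower for most pairs without wild-type mTBI replicate 1. Without that library the correlations of the 3 genes with Itm2b were 0.929, 0.917 and 0.853, and the highest of all pairs was 0.965, for App and Cand1.

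The spread over the 9 libraries differed among the 8 genes. The median range from the lowest to the highest library was log2 0.34 for the 8, against 0.67 for all genes tested and 0.40 for the 8352 genes with at least the mean count of Psen2 (709), the lowest of the 8. App (0.11) and Aplp2 (0.10) had the narrowest ranges and Bace1 (0.58) the widest, followed by Clu (0.44) and Aplp1 (0.41). Thus 3 of the 8 lay above the median of those 8352 genes, a set not matched to the count of each gene.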

How the data were processed

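The authors deposited a table of raw read counts, not normalized, with 1 row per Ensembl gene and 9 libraries. Per the file headers they were made with featureCounts 2.0.6 over exons of Ensembl release 98 on GRCm38, and per the submitters' processing notes FastQC, Trim Galore, HISAT2, SAMtools and MultiQC were used with mm10, with versions not given in the sources used here. Libraries were paired-end reads of 150 bp. The command held no option for counting pairs, strand or multi-mapping reads, and 58.7% to 60.3% of counts above 0 were even, so both mates of a pair can count. Overlapping genes on opposite strands cannot be told apart. Symbols came from a table of gene names that matched 55154 of 55421 genes, and positions and exon lengths from GENCODE M21 (GRCm38), which matched 55240.

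Counts were filtered with filterByExpr, scaled by TMM and tested in edgeR 4.0.16 (R 4.3.3) by quasi-likelihood, two-sided, in a fit of all 9 libraries, 3 per group, with 6 residual and a median of 5.12 prior degrees of freedom. The Benjamini-Hochberg adjustment was over 20032 genes, and genes were called at an adjusted p under 0.05. SEs were derived from the log2 change and F, and 95% intervals from the SE and the t distribution. The fit took the same spread of a gene for all groups, so SEs, intervals and p also hold the spread of the group not compared. Log2 CPM used a prior count of 2. An exact permutation test of 3 against 3 was added. The test was also run on simulated counts with known changes. These were drawn with the same spread in all groups, unlike the data, so they cannot show how the test behaves with unequal spread. Alternatives were DESeq2 1.42.0, limma 3.58.1 voom, other scalings and filters, fewer libraries, halved counts and a replicate block. All 8 genes were named, with up to 3 genes of smallest p from each pathway list per comparison and every gene called, and Tmsb4x. The genes and lists were chosen with earlier results of these data known. Each of the 8 genes had 611 counts or more per library, with Psen2 the lowest.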

Additional observations from a re-analysis of the deposited data

How the results depend on the processing

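None of the 8 genes was called in any of the 3 comparisons under any of the 19 alternatives (456 values, lowest adjusted p 0.261). The sign of the log2 change was kept in 425 of these and turned in 31, all of changes that did not pass. App after injury was at -0.00396 with RLE scaling and with DESeq2, -0.00832 with a stricter filter and -0.00284 in a fit of the 6 libraries compared, and between -0.0258 and 0.0163 with 1 library left out. After injury, voom gave -0.00451 for Aplp1 and 0.00922 for Bace1, and leaving out wild-type mTBI 1 and knockout mTBI 1 together gave -0.028 and 0.0484. With 1 library left out, Aplp1 lay between -0.0281 and 0.148 and Bace1 between -0.236 and 0.0484. With the knockout, voom gave 0.00442 for Aplp1 and -0.098 for Bace1, Bace1 was at -0.000298 without a count filter, and with both libraries left out Psen2 was at 0.0254, Bace1 at -0.149, Clu at 0.0753, Itm2b at 0.0249 and Ace at 0.0169. Ranges with 1 library left out were -0.167 to 0.0116 for Aplp1, -0.00113 to 0.0437 for Aplp2, -0.14 to 0.143 for Bace1, -0.221 to 0.012 for Clu, -0.14 to 0.00979 for Itm2b and -0.641 to 0.238 for Ace. Between knockout mTBI and sham, voom gave -0.0403 for Clu, and the ranges were -0.0581 to 0.0288 for Aplp1, -0.109 to 0.0819 for Clu and -0.00891 to 0.331 for Tmsb4x. After injury Lrp1 was at 0.0141 with both libraries left out and -0.342 to 0.014 with 1 left out, and Itm2c -0.0885 to 0.052. The cause of these turns was not tested.

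Counts over all genes moved more. The 102 genes called after injury were 541 with DESeq2, 722 with voom, 676 without a count filter, 64 with a stricter filter, 253 in a fit of the 6 libraries, 523 with both libraries left out and 5 to 252 with 1 left out. The 3 called with the knockout were 19, 4, 68, 3, 1 and 24 in the same order, and 2 to 7 with 1 left out. The 14 called between knockout mTBI and sham were 226, 279, 387, 14, 71 and 337, and 2 to 128. After injury 5, 5 and 9 genes were called without sham replicate 1, 2 or 3, 26 without wild-type mTBI replicate 3, 40 without knockout mTBI replicate 3 and 252 without knockout mTBI replicate 1. With the knockout, 5 were called without wild-type mTBI replicate 1 and 7 without replicate 3. Between knockout mTBI and sham, 3, 2 and 5 were called without sham replicate 1, 2 or 3, 56 without wild-type mTBI replicate 1, and 128, 26 and 5 without knockout mTBI replicate 1, 2 or 3. The causes were not tested. With the replicate block, 107, 3 and 13 genes were called and none of the 8. Same-numbered libraries did not deviate together (correlations of -0.0887 to 0.0733), so the numbers were not taken as pairs. Levels of the 8 genes moved by less than 1 SD with RLE or no composition scaling. The SE of the 8 genes, 0.06 to 0.12 on the log2 scale, sets the size of change that could be seen.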
